A study of Mus musculus with 6 samples.

Results

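Cyclic nucleotide phosphodiesterases were measured in the dorsal hippocampus of mice in which the long non-coding RNA Snhg11 had been knocked down. The 9 genes described here, Pde1a, Pde1b, Pde2a, Pde4a, Pde4b, Pde4d, Pde7b, Pde8b and Pde10a, were chosen by name, with earlier results of these data known. They are 9 of the 55401 genes counted in each library, and all 9 were among the 19969 genes with enough counts to be tested. No phosphodiesterase passed an adjusted threshold of 0.05 in edgeR, and 0% of all genes tested did. Pde1a had the lowest p of the 9, with a mean in the knockdown samples that was 71.0% of the control mean. Pde4b stood at 175 CPM (counts scaled to the size of the library) in 1 knockdown sample and close to its control level of 72.3 to 81.1 CPM in the other 2, and the remaining 7 genes had overlapping groups, where 7.70% of all genes tested had groups that lay apart with the knockdown lower and 7.73% with it higher.

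The RNA came from WT male mice aged 4 months, littermates of the Ts65Dn line, a mouse model of Down syndrome that was not analysed here. Antisense oligonucleotides (ASOs), short modified DNA-like strands that direct RNase H to a complementary RNA, were infused into the dorsal dentate gyrus of both hemispheres at 50 μg per hemisphere, and tissue was taken 3 days later. The 3 Control-ASO mice received a strand with the same bases in scrambled order, and the 3 Snhg11-ASO mice received a strand against Snhg11. Each library holds RNA of the whole dorsal part of a hippocampus, so cells the ASO did not reach can be included, and fewer cells of a type and less RNA per cell cannot be told apart.

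Gene counts totalled 28951250 to 43997537 per library. CPM values are counts per 1000000 counts on the genes tested, after scaling between libraries with TMM factors. Snhg11 itself was at 551, 436 and 209 CPM in Control-ASO replicates 1 to 3 and at 139, 65.4 and 69.4 CPM in the Snhg11-ASO replicates, so every knockdown sample lay below every control (log2 fold change -2.13, standard error 0.43, adjusted p = 0.395 in edgeR and 6.3e-05 in DESeq2). Snhg11-ASO replicate 1 stood apart from the other 5 libraries. Its rank correlation with them over the genes tested was 0.955 to 0.959, against 0.979 to 0.991 between the others. The methods of the study state that 1 Snhg11-ASO sample was left out as an outlier without naming it, so all 6 were kept here, and values without this library are given beside those that turn on it. Marker genes of hippocampal neurons were present in all samples, with 10 dentate granule cell markers summing to 469 to 541 CPM in controls and 494 to 599 CPM after knockdown. Markers of striatal medium spiny neurons, the cells best known for Pde10a, summed to 54.4 to 68.4 CPM in controls and 46.5 to 57.3 CPM after knockdown, over 10 genes of which none was at 0 in all samples.

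Phosphodiesterases end cyclic nucleotide signals. Adenylyl cyclases make cAMP and guanylyl cyclases make cGMP in answer to neurotransmitters, calcium or nitric oxide, the nucleotides act on protein kinases A and G, on Epac and on ion channels, and phosphodiesterases hydrolyse them to 5′-AMP and 5′-GMP. In the hippocampus this pathway reaches the transcription factor CREB and takes part in long-lasting synaptic plasticity. The families differ in what they cut and what controls them. PDE1 enzymes are switched on by calcium and calmodulin and cut both nucleotides, PDE2 cuts cAMP faster when cGMP is bound, PDE10 cuts both, and PDE4, PDE7 and PDE8 are specific for cAMP, with PDE4 being the target of rolipram.

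All 9 genes encode the same catalytic signature, and its coding stretch is shown because it is what makes these genes 1 family. Each line gives 36 bases, 5′ to 3′ on the coding strand, read from the GENCODE M21 transcript with the longest open reading frame that holds it. Capitals mark the codons of the histidine and aspartate that open the signature, of the second histidine, and of the position that is asparagine or glutamine.
Pde1a: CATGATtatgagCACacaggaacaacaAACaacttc
Pde1b: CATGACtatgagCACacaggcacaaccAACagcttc
Pde2a: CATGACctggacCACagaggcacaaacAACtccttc
Pde10a: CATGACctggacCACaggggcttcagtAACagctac
Pde4a: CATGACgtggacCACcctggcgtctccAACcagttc
Pde4b: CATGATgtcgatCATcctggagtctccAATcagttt
Pde4d: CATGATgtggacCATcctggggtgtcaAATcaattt
Pde7b: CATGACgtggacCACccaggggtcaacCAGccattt
Pde8b: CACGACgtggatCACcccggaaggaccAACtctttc
On GRCm38 these stretches are exonic and coding, each within 1 exon, at chr2:79887855-79887890 on the minus strand for Pde1a, chr15:103524849-103524884 plus for Pde1b, chr7:101508482-101508517 plus for Pde2a, chr17:8967449-8967484 plus for Pde10a, chr9:21204375-21204410 plus for Pde4a, chr4:102599694-102599729 plus for Pde4b, chr13:109939313-109939348 plus for Pde4d, chr10:20434504-20434539 minus for Pde7b and chr13:95034300-95034335 minus for Pde8b. The pair most alike was Pde1a and Pde1b, with 32 of 36 bases identical, followed by Pde4b and Pde4d with 30. The least alike pairs shared 17 bases. The reads were 50 bases long, and no run of 50 bases occurred in annotated transcripts of more than 1 of the 9 genes. The longest shared run was 32 bases, between Pde4b and Pde4d, so a read lying wholly within a transcript of 1 member does not match another exactly.

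Levels of different genes can be compared only per length, and the control means were therefore divided by the merged exonic length. That length joins the exons of 5 to 20 annotated transcripts per gene. Which transcripts were expressed was not measured, so the order below holds per annotated length only. Pde1a was the highest at 26.6 ± 3.90 CPM per kb (SD, n = 3), followed by Pde1b at 15.9 ± 0.319 and Pde8b at 12.2 ± 0.883. The control ranges of these 3 genes did not overlap, with 22.2 to 29.6, 15.5 to 16.1 and 11.5 to 13.2 CPM per kb. Pde4b, Pde10a and Pde4a came next at 7.29 ± 0.419, 6.98 ± 0.540 and 6.89 ± 0.198 CPM per kb, and their ranges overlapped, so these 3 neighbours did not differ beyond their spread. Pde4d was at 5.22 ± 0.285 and Pde7b at 1.23 ± 0.166 CPM per kb, with no overlap between them. Pde2a was at 0.821 ± 0.199 CPM per kb over its whole exonic length, and that value is a floor. A read-through gene annotated on the same strand, Gm45837, shares in GENCODE M21 3955 of the 6149 exonic bases of Pde2a (64.3%), and the aligner's counter leaves a read on exons of both genes uncounted, so Pde2a rests on the other 2194 bases and on 134 to 277 counts per library. Per kb of those bases alone its control level was 2.30 ± 0.559 (SD, n = 3), with a range of 1.81 to 2.91, which lies above Pde7b, so the order of Pde7b and Pde2a is not settled by these counts. Gm45837 itself had 0 to 2 counts.

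**Figure D1:**
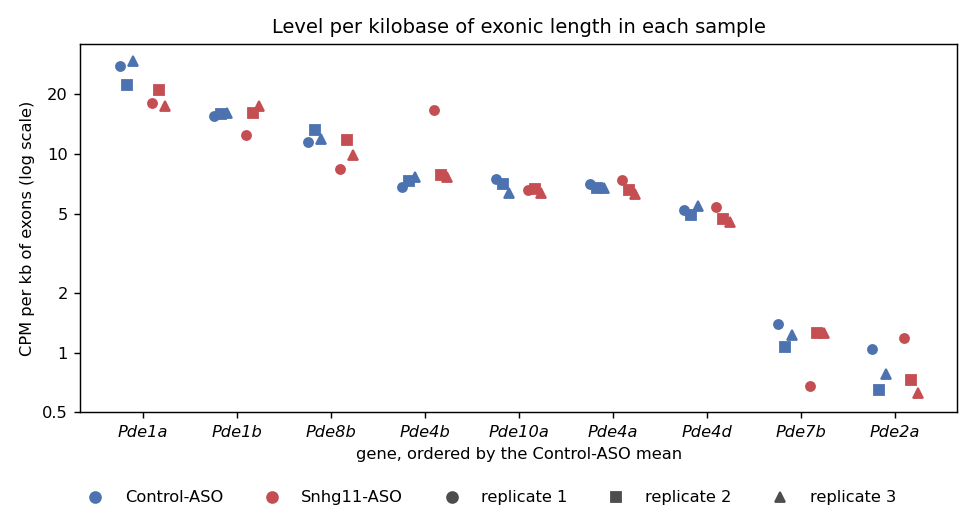
CPM per kilobase of exonic length (log scale) of the 9 phosphodiesterase genes in each of the 6 samples, ordered by the Control-ASO mean, with colour for the group and marker shape for the replicate number. Control levels run from 26.6 CPM per kb for Pde1a to 1.23 for Pde7b, with Pde2a drawn at its floor of 0.821, and Snhg11-ASO replicate 1 stands above the other samples for Pde4b and below them for Pde7b.

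Among the phosphodiesterases that cut both nucleotides, Pde1a (ENSMUSG00000059173, chromosome 2, 79834453 to 80129458, minus strand) was at 168, 133 and 178 CPM in Control-ASO replicates 1, 2 and 3. In Snhg11-ASO replicates 1, 2 and 3 it was at 108, 127 and 105 CPM. Every knockdown sample was below every control, with the highest knockdown value close to the lowest control. Pde1a was therefore lower in the knockdown in 3 of 3 same-numbered pairs, as it would be under any pairing. The means were 160 ± 23.5 and 113 ± 12 CPM (SD, n = 3 each). The log2 fold change, Snhg11-ASO over Control-ASO, was -0.49 with a standard error of 0.14 and a 95% interval from -0.82 to -0.17, an unadjusted p of 0.00858 and an adjusted p of 0.497 (edgeR, quasi-likelihood F test, Benjamini-Hochberg correction across the 19969 genes). DESeq2 gave an adjusted p of 0.113, and the two-sided exact permutation test gave p = 0.1, the smallest that 3 samples against 3 allow. Over 17 alternative settings the log2 fold change lay between -0.61 and -0.33, with adjusted p from 0.081 to 0.979. Without Snhg11-ASO replicate 1 it was -0.46 and the groups still did not overlap.

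Pde1b (ENSMUSG00000022489, chromosome 15, 103503034 to 103530052, plus strand), the other calmodulin-stimulated gene here, was at 83.8, 86.3 and 87.1 CPM in controls and at 67.4, 86.9 and 93.8 CPM after knockdown. Only the Snhg11-ASO replicate 1 value lay below the controls, replicate 2 lay among them and replicate 3 above them. Its log2 fold change was -0.05 (95% interval -0.36 to 0.26, adjusted p = 0.933 in edgeR), and 0.08 without Snhg11-ASO replicate 1. Pde1a and Pde1b therefore had different orders of the same 6 samples, although no test of the difference between the 2 genes was made.

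Pde10a (ENSMUSG00000023868, chromosome 17, 8525372 to 8986648, plus strand), which is most abundant in striatal neurons, was at 95.9, 90.8 and 82.2 CPM in controls and at 85, 85.7 and 81.6 CPM after knockdown. Each knockdown value was below the same-numbered control, but the lowest control lay among the knockdown values. The log2 fold change was -0.09 (standard error 0.09, 95% interval -0.30 to 0.12, adjusted p = 0.813 in edgeR). Pde2a (ENSMUSG00000110195, chromosome 7, 101421691 to 101512827, plus strand) was at 6.39, 3.98 and 4.78 CPM in controls and at 7.26, 4.47 and 3.85 CPM after knockdown. Replicate 1 was the highest sample of each group, and the groups overlapped throughout (log2 fold change 0.04, 95% interval -0.68 to 0.76, adjusted p = 0.980 in edgeR, and -0.28 without Snhg11-ASO replicate 1).

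Of the cAMP-specific genes, Pde4b (ENSMUSG00000028525, chromosome 4, 102087543 to 102607259, plus strand) was at 72.3, 77.6 and 81.1 CPM in controls. Snhg11-ASO replicate 1 had 175 CPM, and replicates 2 and 3 had 82.8 and 81.3 CPM. All 3 knockdown values were above all controls, the lowest by only 0.2 CPM after rounding, and the size of the mean difference (77.0 ± 4.43 against 113 ± 53.9 CPM, SD, n = 3 each) came from replicate 1. Its log2 fold change of 0.56 had a standard error of 0.30 and a 95% interval from -0.15 to 1.26 (unadjusted p = 0.104, adjusted p = 0.680 in edgeR), the exact permutation p was 0.1, and without Snhg11-ASO replicate 1 the log2 fold change was 0.09 (standard error 0.08). Its direction was higher under all 17 alternatives, from 0.05 to 0.80.

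Pde4a (ENSMUSG00000032177, chromosome 9, 21165714 to 21213248, plus strand) was at 54.5, 51.9 and 51.7 CPM in controls and at 56.9, 50.3 and 48.3 CPM after knockdown. Pde4d (ENSMUSG00000021699, chromosome 13, 108449948 to 109953461, plus strand) was at 62.6, 59.2 and 66.1 CPM in controls and at 64.8, 56.8 and 54.4 CPM after knockdown. In both genes Snhg11-ASO replicates 2 and 3 were below all controls and replicate 1 was not. The log2 fold changes were -0.02 (95% interval -0.25 to 0.20) for Pde4a and -0.09 (95% interval -0.33 to 0.14) for Pde4d, with adjusted p of 0.961 and 0.832 in edgeR. Without Snhg11-ASO replicate 1 both groups came apart, at -0.10 for Pde4a and -0.17 for Pde4d, with adjusted p of 0.681 and 0.526. Over the 6 samples Pde4a and Pde4d were the pair of members with the most similar pattern, with a root mean square difference of 0.0631 in centred log2 CPM.

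Pde8b (ENSMUSG00000021684, chromosome 13, 95024454 to 95250336, minus strand) was at 67.9, 77.8 and 70.1 CPM in controls and at 49.3, 69.6 and 58.3 CPM after knockdown. It was lower in 3 of 3 same-numbered pairs, yet Snhg11-ASO replicate 2 lay above the lowest control. Its log2 fold change was -0.28 (standard error 0.14, 95% interval -0.61 to 0.04, unadjusted p = 0.0796, adjusted p = 0.660 in edgeR) and stayed between -0.42 and -0.17 over the alternatives. With the replicate number as a block in edgeR, the unadjusted p of Pde8b was 0.0293 and its adjusted p 0.537. No label ties the same-numbered samples, so these pairs and this block are descriptions only. Pde7b (ENSMUSG00000019990, chromosome 10, 20398004 to 20725078, minus strand) was at 17.5, 13.3 and 15.2 CPM in controls and at 8.45, 15.5 and 15.6 CPM after knockdown. Only Snhg11-ASO replicate 1 was low, and the log2 fold change moved from -0.22 (standard error 0.25, adjusted p = 0.842 in edgeR) to 0.02 without it.

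**Figure D2:**
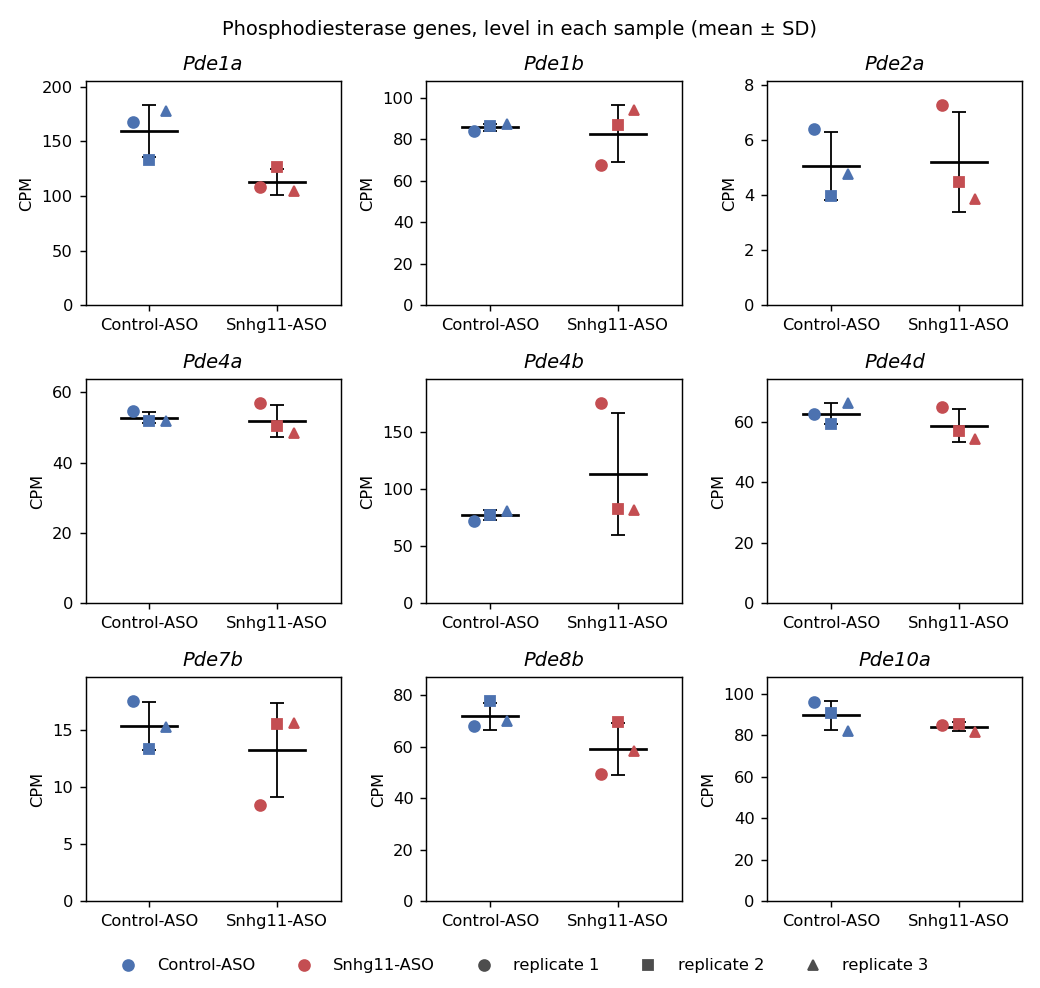
CPM of each phosphodiesterase gene in the 6 samples, 1 panel per gene, each axis starting at 0; points are samples, with marker shape for the replicate number, long bars are group means and whiskers are ± 1 SD (n = 3). The Snhg11-ASO values of Pde1a (105 to 127 CPM) sit below the control values (133 to 178 CPM), and a single Snhg11-ASO value of Pde4b (175 CPM) sits far above the rest.

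Counted over the 9 genes, 0 passed the adjusted threshold in edgeR, where the share of all genes tested that passed was 0% and the smallest adjusted p was 0.237. DESeq2 also called 0 of the 9, while it called 258 of 17966 genes, or 1.44%. At an unadjusted p under 0.05, 1 member was lower (Pde1a) and 0 were higher, where 4.43% of all genes were lower and 3.68% higher. The groups did not overlap for 1 member on the lower side and 1 on the higher side, against 7.70% and 7.73% of all genes tested. In all, 7 members had a log2 fold change below 0 and 2 above, with a median of -0.09 where the median of all genes was 0.01. Shares of 9 genes are coarse, and none of these counts is read as particular to the members. With the replicate number as a block, edgeR placed 2 members below 0.05 on the lower side before adjustment, Pde1a (adjusted p = 0.517) and Pde8b (adjusted p = 0.537), where the same fit placed 4.60% of all genes there. Without Snhg11-ASO replicate 1 the groups did not overlap for 4 members, Pde1a, Pde4a and Pde4d on the lower side and Pde4b on the higher side. In that comparison of fewer samples 13.7% of all genes lay apart on the lower side and 14.7% on the higher side.

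**Figure D3:**
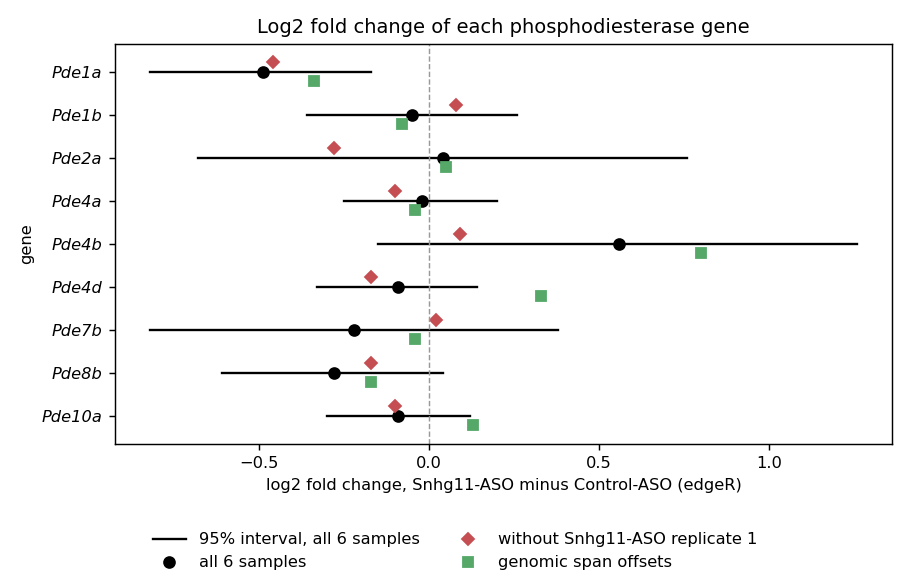
Log2 fold change (Snhg11-ASO minus Control-ASO) of each phosphodiesterase gene in edgeR, as circles with 95% intervals for all 6 samples, diamonds without Snhg11-ASO replicate 1 and squares with offsets for genomic span. The interval of Pde1a (-0.82 to -0.17) is the one that leaves out 0, and Pde4b moves from 0.56 to 0.09 when the replicate is left out.

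Genomic span, the length of a gene on the chromosome with its introns, moved with the difference between groups over all genes, and several members are very long. The median log2 fold change was 0.00 in genes up to 10 kb, 0.04 from 10 to 30 kb and 0.03 from 30 to 100 kb. It was -0.13 in the 763 genes of 200 to 500 kb and -0.37 in the 223 genes above 500 kb, where 90.1% of genes were lower and 50.2% were lower at an unadjusted p under 0.05. Pde4d, at 1503.5 kb, and Pde4b, at 519.7 kb, belong to the longest class. Their log2 fold changes were above those of most genes of that class, with 178 of 223 genes lower than Pde4d and 220 of 223 lower than Pde4b. The size of the Pde4b difference rested on Snhg11-ASO replicate 1. Without that library Pde4b was at 0.09 and Pde4d at -0.17, and places in the class were not computed.

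Pde1a, Pde7b, Pde8b and Pde10a span 295.0, 327.1, 225.9 and 461.3 kb and belong to the class of 200 to 500 kb, in which 16.9% of genes were lower at an unadjusted p under 0.05. Pde1a was low within it too, with 93 of 763 genes having a lower log2 fold change, while 217 were lower than Pde8b, 282 lower than Pde7b and 421 lower than Pde10a. When each sample's trend with span was taken out by offsets, Pde1a was at -0.34 (unadjusted p = 0.0328, adjusted p = 0.642 in edgeR). The same offsets turned Pde4d from -0.09 to 0.33 (unadjusted p = 0.0336, adjusted p = 0.642) and Pde10a from -0.09 to 0.13, and raised Pde4b to 0.80 (unadjusted p = 0.0376, adjusted p = 0.648). The offsets were fitted with all 6 samples, and the size of the Pde4b difference rested on Snhg11-ASO replicate 1 (0.09 without that library and without offsets). With these offsets 3.56% of all genes were lower and 3.92% higher at an unadjusted p under 0.05. Pde1b, Pde4a and Pde2a, at 27, 47.5 and 91.1 kb, moved by little, to -0.08, -0.04 and 0.05. The part of span in the members' differences was not tested.

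**Figure D4:**
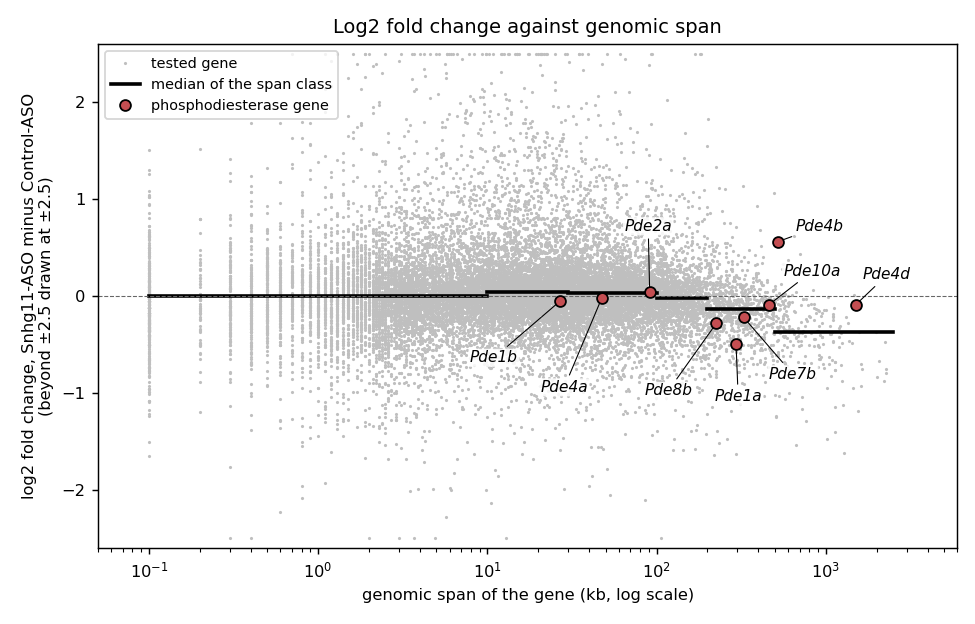
Log2 fold change (Snhg11-ASO minus Control-ASO, edgeR) of every tested gene against its genomic span in kb (log scale), with the 9 phosphodiesterase genes named and horizontal bars for the median of each span class. The class medians go from 0.00 in the shortest genes to -0.37 above 500 kb, with Pde4b at 0.56 above the median of its class and Pde1a at -0.49 below the median of its own. Without Snhg11-ASO replicate 1, which is not drawn here, Pde4b was at 0.09.

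Of 15 other phosphodiesterase genes listed, 12 were tested, 6 of them lower and 6 higher, with a median log2 fold change of -0.04. edgeR and DESeq2 called 0 of them, where they called 0% and 1.44% of all genes. At an unadjusted p under 0.05 in edgeR 1 was lower and 0 were higher, against 4.43% and 3.68% of all genes. Pde11a, which cuts both nucleotides, had the lowest p of these, at 20.4, 9.96 and 9.47 CPM in controls and 5.17, 6.68 and 7.92 CPM after knockdown (log2 fold change -1.01, standard error 0.34, unadjusted p = 0.0199, adjusted p = 0.550 in edgeR). Its knockdown values were all below its controls, of which replicate 1 was far above the other 2, and with span offsets this gene of 349.6 kb was at -0.81. Pde7a, the closest relative of Pde7b, also had groups that did not overlap, at 34.1 to 37.1 against 28.0 to 32.5 CPM (-0.22, adjusted p = 0.647, and -0.15 without Snhg11-ASO replicate 1). Of the 12 tested genes, these 2 lay apart on the lower side and 0 on the higher, against 7.70% and 7.73% of all genes. The cGMP-specific genes Pde5a and Pde9a were at -0.21 and -0.59, with adjusted p of 0.734 and 0.660, and their groups overlapped. They were at -0.11 and -0.46 without Snhg11-ASO replicate 1.

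The cGMP-inhibited genes Pde3a and Pde3b were at 0.17 and 0.25, with adjusted p of 0.867 and 0.680. Pde1c was at 0.10, Pde8a at 0.22 and Pde4c, which had under 1.5 CPM in every sample, at -0.39. Without Snhg11-ASO replicate 1 Pde3a was at 0.03, Pde1c at 0.27 and Pde8a at 0.38, and with span offsets Pde3a and Pde1c, of 258.2 and 499.3 kb, were at 0.31 and 0.33. The photoreceptor subunits Pde6b and Pde6h had log2 fold changes of 1.41 and 0.86 at no more than 2.12 CPM, and Pde6d, a prenyl-binding partner found in many tissues, was at -0.18. Snhg11-ASO replicate 1 had 81 counts of Pde6b and the other knockdown samples 11 and 5, so Pde6b had too few counts to be tested without it, and Pde6h was then at 0.15 and Pde6d at 0.01. Pde6a, Pde6c and Pde6g had 0 to 30 counts per library and were not tested.

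Of the enzymes that make cyclic nucleotides, the 10 adenylyl cyclase genes were 6 lower and 4 higher, with a median log2 fold change of -0.16 and 0 calls by edgeR or DESeq2. At the unadjusted level 3 of them were lower with a p under 0.05, where 4.43% of all genes were. Adcy1, the calmodulin-stimulated cyclase known for its part in hippocampal plasticity, was at 1200, 1600 and 1332 CPM in controls and at 994, 1092 and 896 CPM after knockdown. No knockdown value reached the lowest control (log2 fold change -0.47, standard error 0.14, unadjusted p = 0.0138, adjusted p = 0.530 in edgeR). Adcy8, the other cyclase strongly stimulated by calmodulin, was at 30.9, 22.5 and 32.7 against 11.2, 18.2 and 18.6 CPM, again without overlap (-0.84, standard error 0.24, unadjusted p = 0.00923, adjusted p = 0.498). Adcy3 was at -0.39 with an unadjusted p of 0.0178. With span offsets these 3 genes, of 115, 225.2 and 80.4 kb in the order Adcy1, Adcy8, Adcy3, were at -0.44, -0.72 and -0.39. On the higher side the lowest p belonged to Adcy7 at 0.36 and Adcy10 at 0.36, with adjusted p of 0.699 and 0.867. Adcy7 was at 0.50 and Adcy10 turned to -0.30 without Snhg11-ASO replicate 1.

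Guanylyl cyclases, 10 genes with 6 lower and 4 higher, had a median of -0.08 and 0 genes at an unadjusted p under 0.05. At that level 4.43% of all genes tested were lower and 3.68% higher. Gucy1a1 and Gucy1a2, the alpha subunits of the nitric oxide receptor, were at -0.64 and -0.15, and Gucy1b2 and the natriuretic peptide receptor Npr1 were at 1.15 and 0.56, with adjusted p from 0.618 to 0.734. Gucy1b2 had only 4 to 28 counts per library, and its groups overlapped. Gucy1a1 was at -0.40 and Npr1 at 0.03 without Snhg11-ASO replicate 1, and with span offsets Gucy1a2, of 362 kb, was at 0.04.

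On the receiving side, none of 9 protein kinase A genes and none of 12 tested genes for protein kinase G, Epac and cyclic nucleotide-gated channels and binding proteins had an unadjusted p under 0.05, with medians of -0.07 and -0.13. Of all genes tested, 4.43% were lower and 3.68% higher at that level. The regulatory subunits Prkar1b and Prkar2b were at -0.18 and -0.48, and the kinase inhibitors Pkib and Pkig at 0.23 and 0.03. Prkg1, a cGMP-dependent kinase, was at -0.33, Popdc3 at 0.50 and Cngb1, with only 10 to 31 counts per library, at 0.30. Without Snhg11-ASO replicate 1 Prkar2b was at -0.32, Pkig at -0.10, Prkg1 at -0.17 and Cngb1 at 0.61, and with span offsets Prkg1, of 1200.5 kb, was at 0.04. The 14 genes for anchoring and partner proteins, which hold kinases and PDE4 enzymes near their targets, were 7 lower and 7 higher with a median of 0.01. Akap5 and Akap6 were at -0.23 and -0.11 and Akap13 at 0.33. Akap5 was at -0.15 and Akap13 at 0.16 without Snhg11-ASO replicate 1, and with span offsets Akap6 and Akap13, of 456.2 and 299.1 kb, were at 0.11 and 0.49. Akap12 had 155 CPM in Snhg11-ASO replicate 1 and 20.2 to 36.5 CPM in the other 5 samples, the same library in which Pde4b was high, and its log2 fold change went from 1.17 to -0.49 without it.

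Of 8 genes for G protein alpha subunits and calmodulin, Gnai1, the alpha subunit that inhibits adenylyl cyclases, had the lowest p of all the pathway genes. It was at 120, 111 and 106 CPM in controls and at 58.6, 75.0 and 71.3 CPM after knockdown, with a wide gap between the groups. On the log2 scale the difference was -0.72 with a standard error of 0.12 (unadjusted p = 4.6e-04, adjusted p = 0.308 in edgeR, and 2.4e-04 in DESeq2, which called it), and -0.70 with span offsets. Gnal, the stimulatory subunit of olfactory and striatal neurons, was at -0.20 (unadjusted p = 0.0344), and Gnai3 and Gnai2, further inhibitory subunits, were at 0.29 (unadjusted p = 0.0443) and 0.14. Gnai1 was at -0.62 and Gnai2 at 0.28 without Snhg11-ASO replicate 1.

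Downstream of the pathway, of 10 genes of the CREB family and its coactivators 3 were lower and 7 higher, with a median of 0.22 that became 0.02 without Snhg11-ASO replicate 1. Crem, whose products include a repressor induced by cAMP, was at 11, 12.4 and 12.9 against 17.5, 13.8 and 13.3 CPM (0.29, adjusted p = 0.675 in edgeR). Atf1 was at 0.57, Crtc1 at -0.23 and Creb1 at -0.06. Without that library Crem was at 0.16, Atf1 at 0.14 and Creb1 at 0.08. Of 17 activity-induced genes 1 was lower and 16 higher, with a median of 0.71, and of 0.29 without that library. At an unadjusted p under 0.05, 6 were higher and 1 lower, against 3.68% and 4.43% of all genes. Fos was at 8.91, 8.68 and 8.22 CPM in controls and at 45.9, 16.2 and 21.9 CPM after knockdown (log2 fold change 1.70, standard error 0.37, adjusted p = 0.428 in edgeR and 0.00112 in DESeq2). Its lowest knockdown value was well above the highest control, and the log2 fold change was 1.15 without Snhg11-ASO replicate 1. Of the 102 tested genes on the 9 lists, Gnai1 and Fos were the 2 that DESeq2 called, and edgeR called 0. DESeq2 called 1.44% of all genes with an adjusted p, so this count is not read as particular to the lists. Egr1 was at 33.7 to 35.9 against 42.9 to 65.2 CPM (0.56, adjusted p = 0.527, and 0.35 without that library), and Nr4a2 was the lower one, at 26.6 to 41.6 against 19.4 to 25.2 CPM (-0.54, adjusted p = 0.562).

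**Figure D5:**
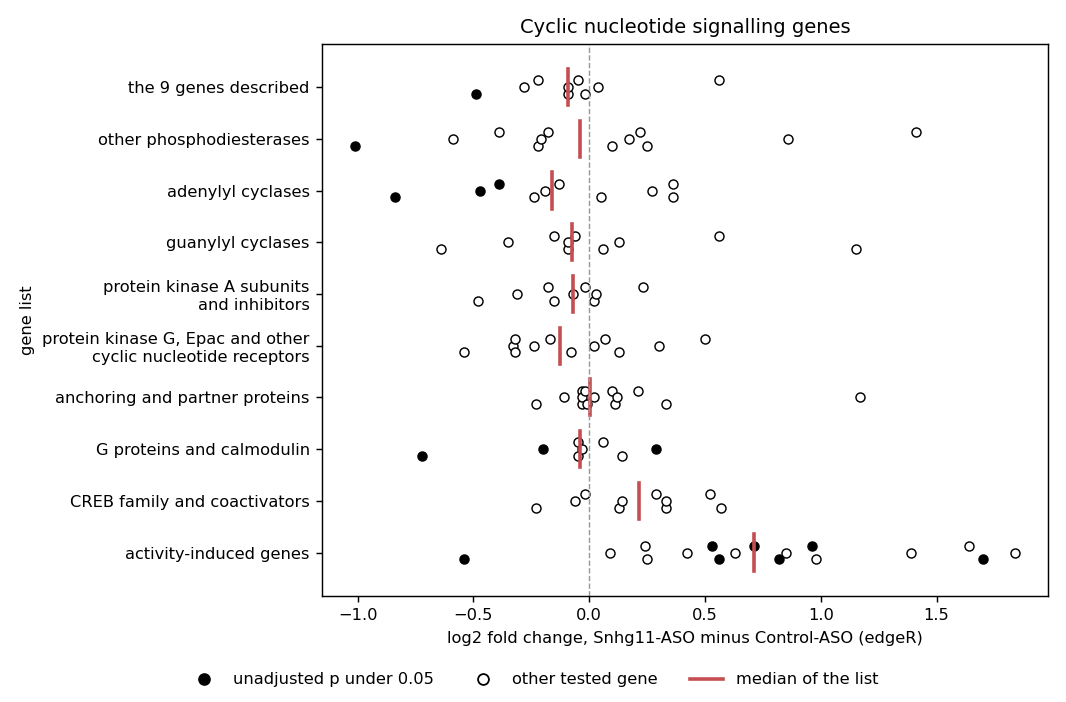
Log2 fold change (Snhg11-ASO minus Control-ASO, edgeR) of the tested genes of the 9 phosphodiesterases and of 9 lists of the cyclic nucleotide pathway, 1 point per gene, filled where the unadjusted p was under 0.05, with a vertical bar at each list's median. The medians lie between -0.16 and 0.01 for 7 lists and at 0.22 and 0.71 for the CREB family and the activity-induced genes.

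The cell content of the samples varied alongside these values. Choroid plexus markers summed to between 37.4 and 1932 CPM in controls and between 70.5 and 1324 CPM after knockdown, in both groups with wide gaps between samples. Microglial markers summed to 251 to 448 against 135 to 462 CPM, the lowest in Snhg11-ASO replicate 1. Astrocyte markers summed to 1192 to 3099 against 1557 to 3675 CPM, and oligodendrocyte markers to 1549 to 2848 against 1628 to 3512 CPM. Interneuron markers, 8 genes, summed to 438 to 482 CPM in controls and to 366 to 427 CPM after knockdown without overlap. Singly, 3 of the 8 lay apart on the lower side and 0 on the higher, against 7.70% and 7.73% of all genes tested. The 6 markers of all neurons summed to 4502 to 4816 against 3859 to 4682 CPM, with 2 apart lower and 0 higher. Of 6 CA1 pyramidal neuron markers 2 lay apart lower and 0 higher. Among 10 CA2 and CA3 markers 1 was lower and 1 higher, and among 10 dentate granule cell markers 0 were lower and 1 was higher. No marker on any list was at 0 in all samples. The part of cell content in the phosphodiesterase values was not tested.

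Annotated genes inside the members could share their reads. On the same strand only 2 held at least 10 counts per library on average. The pseudogene Rps3a3 in Pde4d was at 38.6, 25.1 and 22.1 CPM in controls and at 0.603, 44.4 and 24.6 CPM after knockdown, a pattern unlike that of its host, with Snhg11-ASO replicate 1 nearly without counts. As a copy of a ribosomal protein gene it may share reads with near-identical copies, so its level is uncertain. Gm17229 in Pde7b was at 1.43, 1.04 and 0.980 against 0.734, 0.718 and 1.08 CPM. On the opposite strand the members had between 0% and 6.65% of their counts, the most in Pde8b, whose exons overlap a gene annotated there. Pde1b reached 6.55% with no gene annotated over its exons on that strand. Over all genes the share was 3.24% to 3.78% per library.

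The genes whose patterns over the 6 samples were most like those of the members, by the root mean square difference of centred log2 CPM, were Gm42484 (0.0369) and Lingo2 (0.0529) for Pde1a and Irak2 (0.0383) and Parp4 (0.0458) for Pde4b. For Pde8b they were Abi2 (0.0411) and Gin1 (0.0424), for Pde7b Ccdc96 (0.0386) and Nlrc3 (0.0423), and for Pde2a Gm38376 (0.0502) and Mecom (0.0611). The members that varied little had closer neighbours, with Trap1 (0.0171) and Rbm5 (0.0205) for Pde1b, Abcc4 (0.0194) and Ppp2r5e (0.0211) for Pde4a, Ank2 (0.0226) and Rufy2 (0.0258) for Pde4d, and Fam110b (0.0185) and Tbc1d9b (0.0258) for Pde10a. With 19969 genes and 6 samples such close matches are a description of these libraries only.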

How the data were processed

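Bulk RNA-seq of dorsal hippocampus (3 Control-ASO and 3 Snhg11-ASO mice) was used. The authors aligned paired reads with STAR 2.5.2a to GRCm38 (mm10) and deposited raw read counts per gene for both strands and each strand. Their methods name Rsubread for counting, but the layout is STAR's. Reverse-strand counts were used. Summary lines that name no gene held 43.5% to 51.4% and were left out. GENCODE M21 matched 55141 of 55401 identifiers. Genes were filtered with filterByExpr (minimum count 10), scaled with TMM and tested with edgeR 4.0.16 (quasi-likelihood, no covariates, R 4.3.3, Benjamini-Hochberg over 19969 genes). Standard errors are the size of the log2 fold change over the square root of F. Log2 CPM used a prior count of 2. The alternatives were DESeq2 1.42.0, its size factors in edgeR, no filter, both strands, the replicate number as a block, loess offsets for genomic span, and left-out samples. Scripts were tested on simulated data. The deviations of same-numbered samples had correlations of 0.297, 0.179 and 0.103. Control-ASO 2 and Snhg11-ASO 3 were at 0.188, above 0.179 and 0.103, so the values do not establish pairs. No label ties the numbers either, so the same-numbered pairs and the replicate block are descriptions only. No 2 libraries of the same group agreed within sampling noise, and pairs across groups were not checked. The labels do not say which animal each sample is, and p-values measure the spread between these samples.

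The members, the 9 pathway lists and the 12 marker lists were chosen with earlier results of these data known. All 9 members were named, all other phosphodiesterases tested, from each other list the lowest p, up to 2 genes in each direction, and the 2 genes most like each member. Further genes of the lists were named after their values were seen. Some genes of the lists enter the counts but are not reported here by name. Coding stretches were read from GENCODE transcripts by a search of open reading frames. Intervals are 95%.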

Additional observations from a re-analysis of the deposited data

How the results depend on the processing

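None of the 9 members passed the adjusted threshold under any of the 17 alternatives, and Pde1a, Pde4b and Pde8b kept their direction under all of them. DESeq2 called 258 genes (1.44% of those with an adjusted p) where edgeR called 0, and 2 of them were among the 102 tested genes on the pathway lists. In DESeq2 without Snhg11-ASO replicates 1, 2 and 3 in turn it called 347, 275 and 223 genes, with 6, 4 and 2 on the lists. These fits held 20226, 20376 and 20362 genes after the filter, and the shares of list genes called in them were not computed. None of these counts is read as particular to the lists. At an unadjusted p under 0.05, DESeq2 found 2 members lower and 1 higher without Snhg11-ASO replicate 2, where 4.05% and 5.37% of all genes were, and 1 higher without Snhg11-ASO replicate 3, where 5.64% were.

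With the replicate block 2 members were lower at an unadjusted p under 0.05, where 4.60% of all genes were, and the block changed no adjusted call. Offsets for genomic span gave 2 members higher at that level, where 3.92% of all genes were, and a median over the members of -0.04. Span offsets with the replicate block gave 0 lower and 1 higher, against 3.78% and 4.11% of all genes, and a median of -0.04. Pde4d turned to 0.33 and Pde10a to 0.13 with span offsets, and to the same values, 0.33 and 0.13, with the replicate block added. Since the loess trend is taken out of every gene by its span, these turns follow from the construction.

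When each sample was left out of edgeR in turn, the members lower at an unadjusted p under 0.05 numbered 1 to 2, with 2 without Snhg11-ASO replicate 2, and those higher 0 to 1, with 1 without Snhg11-ASO replicate 2 or 3, against 2.59% to 5.54% of all genes lower and 1.77% to 4.81% higher. Genes called numbered 0 to 2 and members without overlap 2 to 4, in both cases most without Snhg11-ASO replicate 1, where 28.3% of all genes did not overlap (22.7% to 28.3% over the samples left out). The log2 fold change ranged from -0.15 to 0.08 for Pde1b, -0.28 to 0.23 for Pde2a, -0.10 to 0.02 for Pde4a and -0.36 to 0.02 for Pde7b. In DESeq2 without Snhg11-ASO replicate 1, Pde1b was at 0.07, Pde2a at -0.28 and Pde7b at 0.02, and without replicate 3 Pde4a was at 0.03. Without replicate 1 of both groups 6 members did not overlap, nor did 38.8% of all genes, and Pde1b was at 0.06, Pde2a at -0.08 and Pde7b at 0.12. The cause of these changes was not tested beyond the loss of samples itself.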
